A study of Vitis vinifera with 60 samples.

Results

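Phenylalanine ammonia-lyase (PAL) and cinnamate 4-hydroxylase (C4H) are the enzymes that open the phenylpropanoid pathway, and 4 of their genes in the grapevine berry are described here. The tags VIT_06s0004g02620, VIT_08s0040g01710 and VIT_13s0019g04460 are the 3 PAL genes that lie outside the PAL cluster of chromosome 16, and VIT_06s0004g08150 is C4H. They were chosen by tag and not by a rule on their values, though with earlier results of these data known, from the 29287 entries of the deposited table. All 4 were among the 18207 entries with a mean of at least 1 FPKM that entered the tests. The field after VIT_ in a tag names its chromosome, so the PAL genes are called the chromosome 6, chromosome 8 and chromosome 13 PAL genes below. The C4H gene carries the same chromosome field as the first of them, 6.

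The berries came from 5 red-berried cultivars of Vitis vinifera, Sangiovese, Barbera, Negroamaro, Refosco and Primitivo, which shared a vineyard in the 2011 season. No treatment is named in the labels. RNA of the pericarp, the berry without its seeds, was sequenced at 4 stages, in pea-sized berries, in berries beginning to touch, in soft berries and in berries at harvest, with 3 biological replicates listed for each of 20 combinations. The table holds 1 value per combination, the authors' mean in FPKM (fragments scaled to transcript length and to library size), so replicate spread and read depth are unknown. Each SD below is the spread over the 5 cultivars, which serve as the replicates of a stage.

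PAL removes ammonia from phenylalanine to give cinnamate, and C4H, a cytochrome P450 of the endoplasmic reticulum, hydroxylates cinnamate to p-coumarate. After 4-coumarate:CoA ligase (4CL) has activated p-coumarate, chalcone synthase (CHS) leads it into flavonoids, among them the anthocyanins of red berry skin, while stilbene synthase (STS) leads it into stilbenes such as resveratrol, and other enzymes lead it to lignin. PAL is encoded by several genes in plants.

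The harvest columns labelled Negroamaro and Primitivo went against their labels. Across the tested genes, the deviation of the harvest column labelled Negroamaro from its stage mean correlated with Primitivo at the other stages (Pearson r = 0.452) and not with Negroamaro (r = -0.0976). The column labelled Primitivo correlated with Negroamaro (r = 0.442) and not with Primitivo (r = -0.0873), while each of the other 18 columns correlated best with its own cultivar. Labels are kept as deposited, and results by cultivar that rest on these columns are also given with the columns exchanged. Bulk values also cannot tell fewer cells of a type from less RNA per cell. Tissue markers were not checked, and the libraries were non-directional, so antisense reads count towards a gene. PAL genes resemble each other, and the sources used here do not say how reads shared between copies were assigned, so the level of a single PAL gene is uncertain to that extent.

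The 3 PAL genes fell together before softening and then parted: the chromosome 6 and chromosome 13 genes rose again in soft berries, and the chromosome 8 gene rose at harvest, after staying low in soft berries in 4 of 5 cultivars. C4H moved in shared directions, but none of its steps passed the test. C4H had the highest mean level over the 20 columns, 125.4 FPKM, above that of 93.7% of the tested genes. The PAL genes had means of 43.7 FPKM on chromosome 8, 34.9 FPKM on chromosome 13 and 32.1 FPKM on chromosome 6, each above at least 73.0% of the tested genes. Between its lowest and highest column the level differed 115-fold for the chromosome 8 gene, 88.9-fold for the chromosome 13 gene, 80.0-fold for the chromosome 6 gene and 36.7-fold for C4H.

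**Figure D1:**
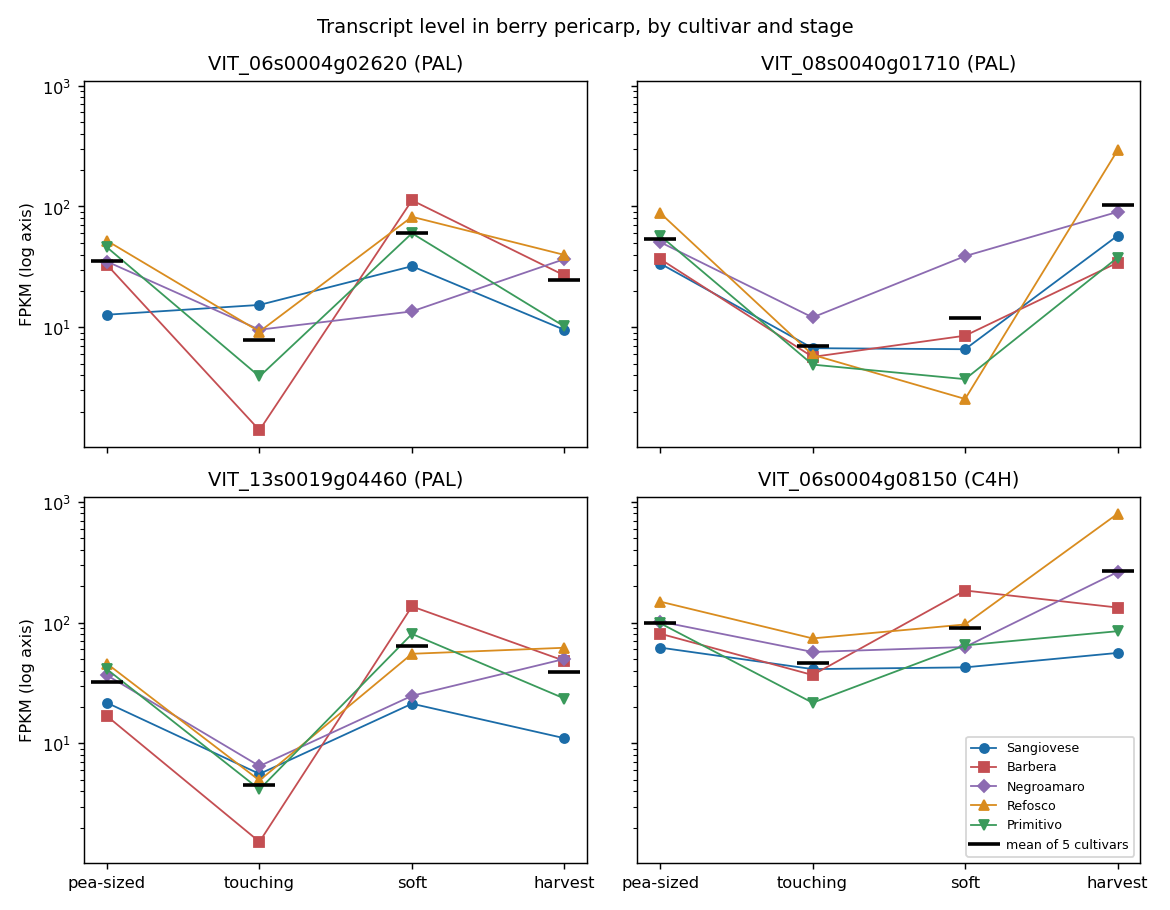
FPKM of the 3 dispersed PAL genes and C4H (a panel each, log axis) at the 4 stages, with a line for each cultivar and a black bar for the mean of the 5. The chromosome 13 PAL gene is lowest in touching berries in all 5 cultivars, the chromosome 8 PAL gene stays low from touching to soft berries in all but Negroamaro, and C4H has its highest value, 796 FPKM, in Refosco at harvest.

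In pea-sized berries the chromosome 6 PAL gene (VIT_06s0004g02620) stood at 12.7 FPKM in Sangiovese, 32.9 in Barbera, 35.0 in Negroamaro, 52.1 in Refosco and 45.9 in Primitivo. In touching berries its levels in the same order were 15.3, 1.41, 9.55, 9.21 and 3.91 FPKM. The 2 stages overlapped only through Sangiovese, where the gene started lowest and did not fall. In soft berries the levels were 32.1, 112.5, 13.5, 82.2 and 60.0 FPKM, and at harvest 9.52, 26.9, 36.7, 39.7 and 10.2 FPKM. Barbera thus held both its lowest column, in touching berries, and its highest, in soft berries.

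The fall of the chromosome 6 gene VIT_06s0004g02620 from pea-sized to touching berries was 2.19 ± 0.61 on the log2(FPKM + 1) scale used for all changes (change -2.19 ± SE, 95% interval -3.5 to -0.88, limma adjusted p = 0.0187), with 4 of 5 cultivars lower. At this step 10.5% of the tested genes fell at an adjusted p under 0.05 and 12.4% rose. The call was lost when Barbera (adjusted p = 0.0744), Refosco (0.0717) or Primitivo (0.0913) was left out of the limma fit. The gene then rose from touching to soft berries by 2.74 ± 0.61 (1.43 to 4.05, limma adjusted p = 0.00161) in 5 of 5 cultivars, from 1.42-fold in Negroamaro to 80.0-fold in Barbera, where 13.9% of the tested genes rose and 41.5% fell. Its change from soft berries to harvest, -1.16 ± 0.61 (-2.47 to 0.15, limma adjusted p = 0.15), did not pass, with lower levels in 4 of 5 cultivars and a higher one in the column labelled Negroamaro. With the 2 harvest columns exchanged it was lower in 5 of 5 (limma adjusted p = 0.125), and with Negroamaro left out the change was -1.79 (adjusted p = 0.0445).

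The chromosome 13 PAL gene (VIT_13s0019g04460) had 21.7 FPKM in Sangiovese, 16.8 in Barbera, 36.6 in Negroamaro, 45.7 in Refosco and 41.1 in Primitivo in pea-sized berries. In touching berries it had 5.59, 1.53, 6.49, 4.94 and 4.16 FPKM in that order. These 5 values lay below all 15 values of the other stages. In soft berries the levels were 21.3, 136.1, 24.8, 55.2 and 80.6 FPKM, and at harvest 11, 48.2, 49.997, 61.9 and 23.5 FPKM. As with the chromosome 6 gene, Barbera had the lowest touching and the highest soft column, while soft and harvest columns overlapped.

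The chromosome 13 gene VIT_13s0019g04460 fell by 2.59 ± 0.50 on the log2 scale into touching berries (change -2.59, interval -3.65 to -1.52, limma adjusted p = 0.00202), in 5 of 5 cultivars and by 3.88-fold to 11-fold. It rose by 3.31 ± 0.50 into soft berries (2.24 to 4.37, limma adjusted p = 6.42e-05), again in 5 of 5 cultivars, by 3.81-fold in Sangiovese to 88.9-fold in Barbera. Its change to harvest, -0.59 ± 0.50 (-1.66 to 0.48, limma adjusted p = 0.376), did not pass, with lower levels in 3 cultivars and higher ones in 2, or lower in 4 and higher in Refosco with the doubted harvest columns exchanged. A fall into touching berries followed by a rise into soft berries, both called, was shared by 191 of the tested genes, or 1.05%, and among the 4 genes by those of chromosomes 6 and 13.

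The chromosome 8 PAL gene (VIT_08s0040g01710) began at 33.7 FPKM in Sangiovese, 36.8 in Barbera, 50.7 in Negroamaro, 88.5 in Refosco and 57.4 in Primitivo. In touching berries it had 6.72, 5.68, 12.1, 5.92 and 4.91 FPKM. The pea-sized and touching columns did not overlap, and no cultivar held more than 12.1 FPKM in touching berries. In soft berries 4 cultivars stayed there, with 6.58 FPKM in Sangiovese, 8.52 in Barbera, 2.55 in Refosco and 3.72 in Primitivo, while Negroamaro had 38.8 FPKM. At harvest the levels were 57.3, 34.3, 90.2, 292.1 and 37.8 FPKM in the first order, so that Refosco went from the lowest soft column to the highest harvest column. The harvest mean was 102.4 ± 108.4 FPKM (SD, n = 5) and 54.9 FPKM without Refosco.

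For VIT_08s0040g01710 the fall into touching berries was 2.73 ± 0.54 on the log2 scale (change -2.73, interval -3.89 to -1.57, limma adjusted p = 0.00244), in 5 of 5 cultivars and by 4.2-fold to 14.9-fold. From touching to soft berries its change was 0.16 ± 0.54 (-1.0 to 1.32, limma adjusted p = 0.821), with higher levels in 2 cultivars and lower ones in 3. From soft berries to harvest it rose by 3.09 ± 0.54 (1.93 to 4.24, limma adjusted p = 0.000563), where 14.9% of the tested genes rose and 24.5% fell. The rise was seen in 5 of 5 cultivars, from 2.32-fold in the column labelled Negroamaro to 115-fold in Refosco. With the harvest columns exchanged it was called too (limma adjusted p = 0.00108) but seen in 4 of 5, since Negroamaro then went from 38.8 to 37.8 FPKM and Primitivo from 3.72 to 90.2 FPKM. Without Refosco the rise was 2.27 (limma adjusted p = 0.00132). A called fall into touching berries with a called rise at harvest was shared by 171 tested genes, or 0.939%.

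C4H (VIT_06s0004g08150) had 62.1 FPKM in Sangiovese, 81.0 in Barbera, 101.9 in Negroamaro, 149.2 in Refosco and 98.9 in Primitivo in pea-sized berries. In touching berries it had 41.2, 36.8, 57.1, 74.0 and 21.7 FPKM, and in soft berries 42.6, 184.3, 62.8, 96.5 and 64.8 FPKM. Each cultivar thus had a lower level in touching berries than before and after, although the stages overlapped. At harvest it had 56.1, 133.2, 262.3, 796.2 and 84.9 FPKM. The harvest mean was 266.5 ± 306.4 FPKM (SD, n = 5), and 134.1 FPKM without Refosco.

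None of the 3 steps of C4H passed the test in the values as deposited, although the directions were shared. VIT_06s0004g08150 changed by -1.13 ± 0.42 on the log2 scale into touching berries (-2.04 to -0.23, limma adjusted p = 0.0684), with 5 of 5 cultivars lower, by 1.51-fold in Sangiovese to 4.56-fold in Primitivo. Into soft berries it changed by 0.88 ± 0.42 (-0.03 to 1.78, limma adjusted p = 0.0921), with 5 of 5 higher, by 1.03-fold in Sangiovese to 5.01-fold in Barbera. To harvest it changed by 1.08 ± 0.42 (0.17 to 1.98, limma adjusted p = 0.0566), with 4 of 5 higher, 8.25-fold in Refosco, and Barbera lower. Each of these steps passed under some other scalings of the columns, for quantile normalization with limma adjusted p-values of 0.0323, 0.0311 and 0.0326 in the order of the steps. Without Refosco the harvest change was 0.59 (limma adjusted p = 0.308), and without Barbera it was 1.46 and passed (limma adjusted p = 0.0256). The touching change was -0.88 without Primitivo (limma adjusted p = 0.250), and the soft change was 0.52 without Barbera (limma adjusted p = 0.346).

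Over both ripening stages together, soft and harvest against pea-sized and touching, 3 of the 4 genes were higher, against 23.5% of the tested genes. The chromosome 13 gene VIT_13s0019g04460 rose by 1.72 ± 0.35 on the log2 scale (limma adjusted p = 0.000456), the chromosome 6 gene VIT_06s0004g02620 by 1.06 ± 0.43 (limma adjusted p = 0.0372) and C4H, VIT_06s0004g08150, by 0.85 ± 0.30 (limma adjusted p = 0.0184). The chromosome 8 gene VIT_08s0040g01710 changed by 0.34 ± 0.38 (-0.48 to 1.16, limma adjusted p = 0.432). This contrast averages pea-sized berries with touching berries, where the mean of each of the 4 genes was lowest. Compared with pea-sized berries alone, the chromosome 6 mean was lower at harvest (24.6 against 35.7 FPKM). The C4H mean was lower in soft berries (90.2 against 98.6 FPKM). The other ripening means of the 3 called genes were above pea-sized berries. Without Barbera the calls for the chromosome 6 gene (0.67, limma adjusted p = 0.177) and for C4H (0.69, limma adjusted p = 0.0667) were lost. That for the chromosome 6 gene was also lost without Refosco (1.0, limma adjusted p = 0.12) and without Primitivo (1.14, limma adjusted p = 0.0614).

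**Figure D2:**
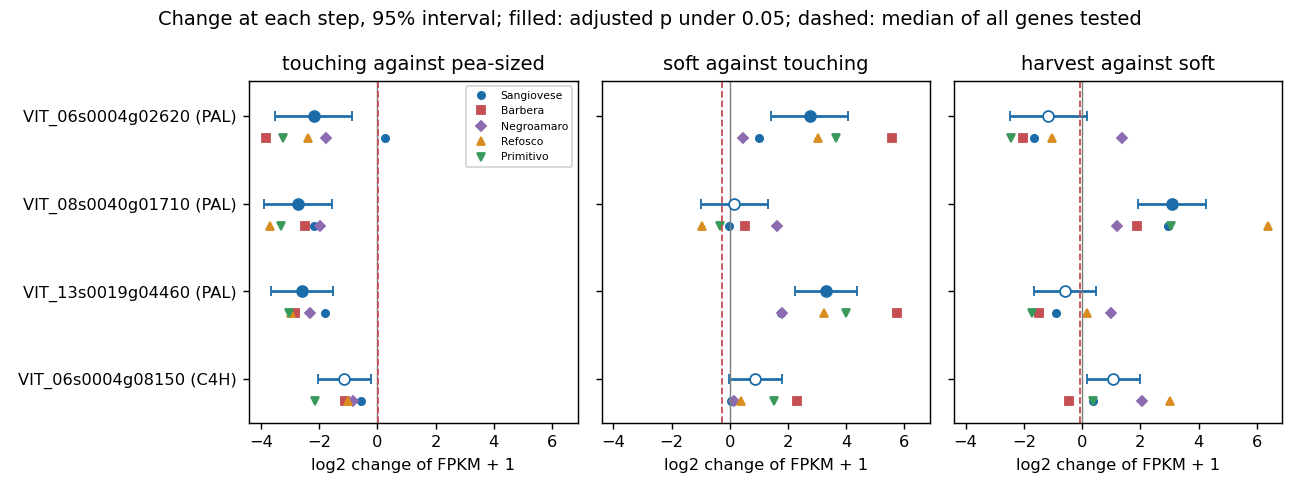
Change in log2(FPKM + 1) of each gene at the 3 steps, with small points for the 5 cultivars under the limma estimate and its 95% interval. Filled circles passed at an adjusted p under 0.05, and the dashed line is the median of all genes tested. All 5 points of the chromosome 13 PAL gene lie below 0 in touching and above 0 in soft berries, and all 5 of the chromosome 8 PAL gene lie above 0 at harvest with the labels as deposited.

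The balance of rises and falls over all genes depended on how columns were scaled, because the median gene changed by -0.26 on the log2 scale from touching to soft berries in the values as deposited, by -0.45 with equal totals, by -0.04 with upper-quartile scaling and by 0.07 with quantile normalization. Of the genes called at that step 25% rose as deposited, 45.7% with upper-quartile scaling, 54.9% with quantile normalization and 13.7% with equal totals. The chromosome 6 and 13 PAL genes were called higher there under each of these scalings. From pea-sized to touching berries 54.1% of called genes rose, or 25.9% with equal totals, and from soft berries to harvest 37.8%, or 52.2% with quantile normalization, 65.8% with equal totals and 54.5% with equal totals outside the 10 highest genes. For ripening as a whole 31.5% rose, 45.8% with upper-quartile scaling and 55.9% with quantile normalization, with a median of -0.30 as deposited.

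The 4 genes were also compared with each other within each column, as the difference of their log2(FPKM + 1) values, called their log2 ratio here. The added 1 leaves some dependence on column scaling and pulls low levels together, and plain ratios of FPKM, which are free of that scaling, put the same 5 of 6 pairs past the threshold (exact permutation, adjusted p of 0.000452 to 0.0137). For the chromosome 13 gene over C4H in touching berries the mean was -3.38 as a plain log2 ratio and -3.07 with the added 1. All 6 pairs were tested with an exact permutation of stage labels within cultivars, adjusted over the 6 pairs, and in 5 the ratio differed between stages. The ratio of the chromosome 8 to the chromosome 13 PAL gene had a mean log2 of 0.71 ± 0.28 in pea-sized, 0.57 ± 0.53 in touching, -2.57 ± 2.08 in soft and 1.1 ± 1.16 in harvested berries (SD, n = 5, exact permutation, adjusted p = 0.0113). It fell into soft berries in 5 of 5 cultivars and rose to harvest in 5 of 5. In the median cultivar the chromosome 13 gene stood 16-fold above the chromosome 8 gene in soft berries, and 1.80-fold below it at harvest.

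Towards the chromosome 8 gene, the chromosome 6 gene had a mean log2 ratio of 2.5 ± 2.37 in soft and -1.75 ± 0.99 in harvested berries (SD, n = 5, exact permutation, adjusted p = 0.0113). This ratio rose into soft berries in 4 of 5 cultivars. It fell to harvest in 4 of 5, or in 5 of 5 with the harvest columns exchanged. Negroamaro was the cultivar in which the chromosome 8 gene stayed above the chromosome 6 gene in soft berries. Between the chromosome 6 and 13 genes no difference passed (exact permutation, adjusted p = 0.0564), their mean log2 ratio being 0.10, 0.49, -0.08 and -0.64 from the first stage to the last, although it passed without Sangiovese (exact permutation, adjusted p = 0.0417). That ratio fell into soft berries in 5 of 5 cultivars, and at harvest the chromosome 13 gene was the higher in all 5 columns.

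Each PAL gene changed against C4H. The log2 ratio of the chromosome 13 gene to C4H went from -1.61 ± 0.36 to -3.07 ± 0.72, -0.64 ± 0.62 and -2.31 ± 0.84 over the stages (SD, n = 5, exact permutation, adjusted p = 0.000977), with the same direction in 5 of 5 cultivars at every step. The ratio of the chromosome 6 gene to C4H was -1.52, -2.58, -0.72 and -2.95 (exact permutation, adjusted p = 0.0106), and that of the chromosome 8 gene to C4H was -0.90, -2.50, -3.21 and -1.20 (exact permutation, adjusted p = 0.0113). The mean ratio to C4H was thus lowest in touching berries for the chromosome 13 gene, in soft berries for the chromosome 8 gene and at harvest for the chromosome 6 gene. For the 4 pairs with values of 0.0106 to 0.0113, the exact permutation gave an adjusted p of 0.0743 without Refosco and of 0.0551 to 0.0657 without Primitivo.

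Because FPKM is scaled to transcript length, levels can be ranked between genes. C4H was the highest of the 4 in 18 of 20 columns, the exceptions being Sangiovese at harvest, where the chromosome 8 PAL gene was higher, and Primitivo in soft berries, where the chromosome 13 gene was. Among the PAL genes, the chromosome 8 gene led in 5 of 5 cultivars in pea-sized berries. It led in 3 of 5 in touching berries, with the chromosome 6 gene leading in the other 2. In soft berries the lead passed to the chromosome 6 gene in 2 cultivars and to the chromosome 13 gene in 2, with the chromosome 8 gene ahead in Negroamaro alone. At harvest the chromosome 8 gene led in 4 and the chromosome 13 gene in Barbera. The chromosome 8 gene accordingly made up 44.2% ± 4.17 of the summed level of the 3 genes in pea-sized, 40.1% ± 16.1 in touching, 13.8% ± 20.8 in soft and 56.6% ± 17.9 in harvested berries (SD, n = 5).

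The dispersed genes were set beside the 10 PAL genes of the chromosome 16 cluster, which may share reads and are described as a sum. The summed level of the 3 dispersed genes was 121.5 ± 46.9 FPKM in pea-sized, 19.5 ± 8.67 in touching, 135.7 ± 77.5 in soft and 165.9 ± 134.1 in harvested berries (SD, n = 5). The cluster summed to 34.7 ± 8.34, 15.5 ± 4.40, 21.4 ± 23.8 and 666.7 ± 815.1 FPKM in the same order, the last being 322.7 FPKM without Refosco. The dispersed genes thus held 75.9% ± 10.5, 54.1% ± 6.17, 84.7% ± 17.2 and 27.5% ± 9.74 of the summed level of all 13 listed PAL genes, and this share differed between stages (exact permutation of stage labels within cultivars, p = 7.54e-05). At harvest the share lay between 16.2% in Refosco and 38.6% in Sangiovese, below every column of the other stages, and in soft berries between 55.1% in Negroamaro and 97.0% in Primitivo. None of the 10 cluster genes passed at the first 2 steps with limma (at an unadjusted p under 0.05, 1 was lower in touching berries and 0 changed in soft berries). At those steps 10.5% and 41.5% of all tested genes fell and 12.4% and 13.9% rose, at an adjusted p under 0.05. The shares at an unadjusted p under 0.05 were not computed. At harvest 10 of 10 rose, with a median change of 3.79 on the log2 scale against -0.08 over all tested genes, of which 14.9% rose. As reads may be shared, the 10 may not count as separate results.

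**Figure D3:**
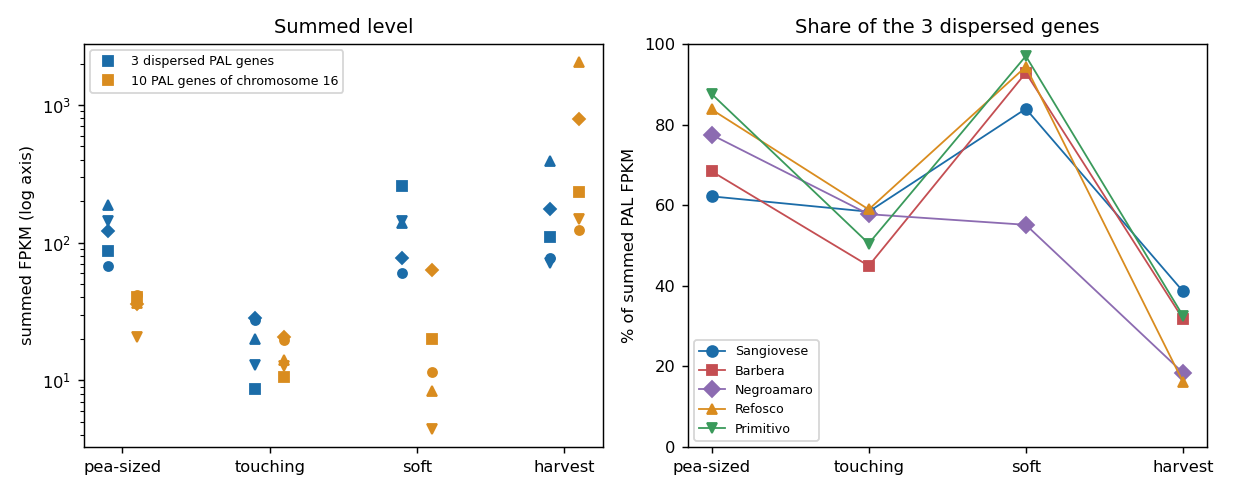
Left, summed FPKM (log axis) of the 3 dispersed PAL genes and of the 10 on chromosome 16 at each stage, with a point for each cultivar, and right, the share of the dispersed genes in the sum of all 13 (percent), with a line for each cultivar. The share is between 16.2% and 38.6% at harvest, below all columns of the earlier stages.

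Summed dispersed PAL was above C4H in pea-sized and soft berries and below it in touching berries. The sum was 1.21 ± 0.156 times the C4H level in pea-sized berries, 0.453 ± 0.194 times in touching, 1.54 ± 0.393 times in soft and 0.844 ± 0.335 times in harvested berries (SD, n = 5). It was above C4H in 5, 0, 5 and 1 of the 5 cultivars. With the cluster added, the ratio was 1.61 ± 0.109, 0.834 ± 0.339, 1.85 ± 0.384 and 3.10 ± 0.525. Both ratios use this C4H gene alone. The 2 other entries listed as like C4H, not counted in them, summed to 258.1 ± 354.1 FPKM at harvest, against 266.5 FPKM for C4H. At the earlier stages their mean sums were 10.7, 4.66 and 8.06 FPKM. Across the 20 columns, which share stages and cultivars, the log2 level of C4H correlated with the dispersed sum at r = 0.813, with the cluster sum at r = 0.720 and with the sum of all 13 at r = 0.906. Without Refosco at harvest these were 0.806, 0.532 and 0.854.

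**Figure D4:**
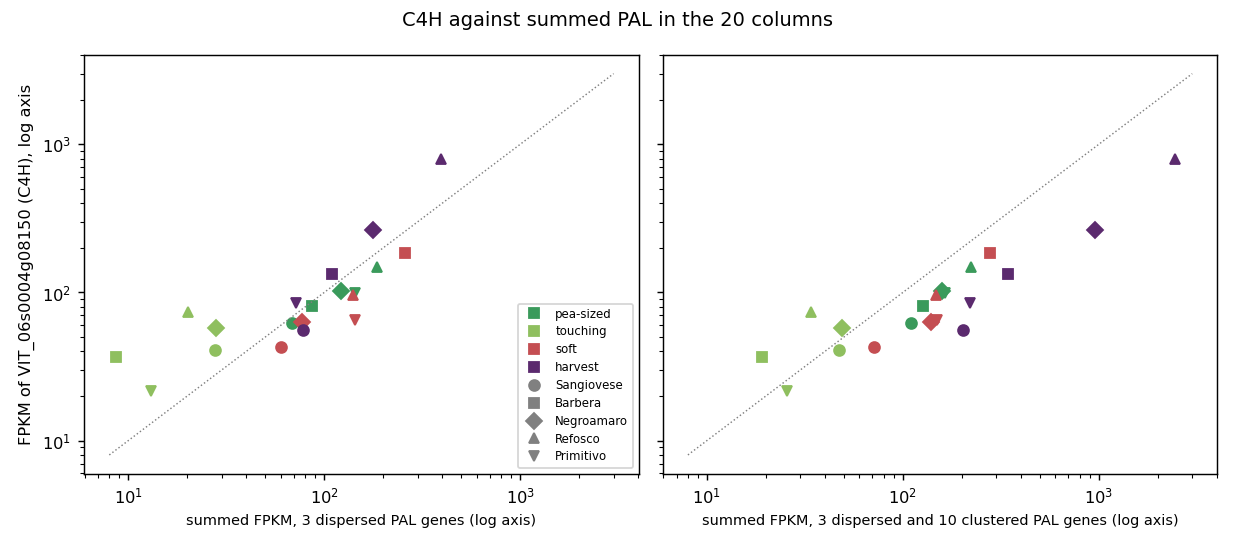
C4H against the summed level of the 3 dispersed PAL genes (left) and of all 13 (right), in FPKM on log axes, for the 20 columns, with stages by colour, cultivars by shape and equal levels as a dotted line. C4H rises with summed PAL in both panels (r = 0.813 and r = 0.906), and Refosco at harvest lies at the upper end, with 796 FPKM of C4H.

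Likeness of pattern was measured as Pearson's r of log2(FPKM + 1) over the 20 columns, among 10794 entries with a mean of at least 10 FPKM. It is a description, since columns of a stage move together. The chromosome 6 and 13 PAL genes were each other's second most alike entry (r = 0.903). The chromosome 8 gene was less like them, with r = 0.174 and 0.346, and C4H lay between, with r = 0.603 towards the chromosome 6 gene, 0.693 towards the chromosome 13 gene and 0.671 towards the chromosome 8 gene. The entry most like both the chromosome 6 gene (r = 0.946) and the chromosome 13 gene (r = 0.910) was VIT_14s0068g00920, and the third was VIT_04s0023g03370 (r = 0.894) and VIT_05s0136g00260 (r = 0.901), respectively. VIT_14s0068g00920 and VIT_05s0136g00260 stand on the list of CHS tags used below, and VIT_04s0023g03370 on that of later flavonoid enzymes. Most like the chromosome 8 gene were VIT_19s0015g01890 (r = 0.875), VIT_00s0480g00030 (r = 0.875) and VIT_00s0480g00040 (r = 0.868). For C4H they were VIT_08s0040g00440 (r = 0.894), VIT_12s0028g00590 (r = 0.891) and VIT_00s0391g00070 (r = 0.889). These 6 tags are on none of the lists. Further down, the entry of rank 4 for the chromosome 8 gene was on the 4CL list (r = 0.854). Of the 20 entries most like it, 7 were on the lists of 4CL, STS and chromosome 16 PAL. The counts were 6 for the chromosome 6 gene and 5 for the chromosome 13 gene, each counting the other, and 1 for C4H. How many of the 10794 entries were on the lists was not computed. Copies within the STS and PAL clusters may share reads, so they may not count as separate likenesses. With the summed chromosome 16 PAL cluster, r was 0.835 for the chromosome 8, 0.0763 for the chromosome 6 and 0.291 for the chromosome 13 gene.

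The genes were then set beside lists of tags for the enzymes downstream, drawn up from published grapevine gene naming. Neither the deposited table nor the reference table gives these names, and they were not checked against sequence. On the CHS list 3 of 3 tags fell into touching berries (median change -2.07 on the log2 scale), 3 of 3 rose into soft berries (2.61) and 0 of 3 passed at harvest (-0.77), by limma at an adjusted p under 0.05 and also at an unadjusted p under 0.05. The steps called for the chromosome 6 and 13 PAL genes were the same. Of 10 tags for flavonoid enzymes after CHS, 4 fell into touching berries, 5 rose and 2 fell into soft berries, and 3 fell at harvest. Over all tested genes 10.5% fell into touching berries, 13.9% rose and 41.5% fell into soft berries, and 24.5% fell at harvest, so the share that fell at harvest was near the background. The summed CHS level correlated across the 20 columns with the chromosome 13 PAL gene at r = 0.919 and the chromosome 6 gene at r = 0.906, and with the chromosome 8 gene at r = 0.181 and C4H at r = 0.577.

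The STS lists moved at the same step as the chromosome 8 PAL gene's second change. Of the STS tags of chromosome 16, 34 were tested, and 34 of 34 rose at harvest with a median of 4.15 on the log2 scale, as did 9 of 9 tested on chromosome 10 with a median of 4.44. Of all tested genes 14.9% rose at this step. How reads shared between copies were assigned is not known for these tags either. At the other steps 2 of the 34 rose into soft berries, where 13.9% of all tested genes rose, and no others passed with limma. At an unadjusted p under 0.05, 5 of the 34 were lower in touching berries and 1 of the 9 in soft berries. The shares of all tested genes at that unadjusted threshold were not computed, so the unadjusted counts have no background. The fall of the chromosome 8 gene into touching berries had thus no called counterpart in these lists, where the medians were -0.97 and -0.71. The direction was shared, as the summed level of each list was lower there in 5 of 5 cultivars. It fell by 1.07-fold to 8.23-fold on chromosome 16 and by 1.08-fold to 3.53-fold on chromosome 10. The summed STS level of chromosome 16 correlated with the chromosome 8 gene at r = 0.795 and C4H at r = 0.734, and with the chromosome 6 and 13 genes at r = 0.138 and 0.361. Refosco at harvest was the highest column of this sum (15289.6 FPKM), of the chromosome 8 gene and of C4H. The correlations with the STS sum were not computed without that column. Of the 4CL list 4 of 5 tags were tested, and they moved in both directions: 2 rose and 1 fell into touching berries, 1 rose and 3 fell into soft berries, and 1 rose at harvest. Over all tested genes the shares were 12.4% and 10.5%, 13.9% and 41.5%, and 14.9% in the same order.

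Cultivar differences over the 4 stages were not called for any of the 4 genes, while 16.3% of the tested genes passed the moderated F test over cultivars. Its limma adjusted p was 0.0775 for C4H, 0.329 for the chromosome 8, 0.484 for the chromosome 13 and 0.650 for the chromosome 6 PAL gene. Unadjusted, C4H alone of the 4 was under the threshold of 0.05, for which the unadjusted share of all tested genes was not computed. The cultivar furthest from the other 4, by its p-value, was Refosco for C4H, which was higher by 1.24 ± 0.37 on the log2 scale over the 4 stages (VIT_06s0004g08150, 0.44 to 2.04, limma adjusted p = 0.0551). Refosco held the highest C4H column in pea-sized, touching and harvested berries, and Barbera did in soft berries. This contrast passed with upper-quartile scaling (limma adjusted p = 0.0486), with quantile normalization (0.0390) and without Barbera (0.0419). Among the settings where it did not pass, the limma adjusted p was 0.129 without Sangiovese and 0.119 without Primitivo. With the harvest columns exchanged it was 0.0600, and 0.0660 with them left out. For the chromosome 13 gene VIT_13s0019g04460 it was Sangiovese, at -0.89 ± 0.44 (limma adjusted p = 0.235). For the chromosome 8 gene VIT_08s0040g01710 it was Negroamaro, at 1.03 ± 0.48 (limma adjusted p = 0.298), a value of 0.64 with the harvest columns exchanged.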

How the data were processed

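Per the labels' protocols, about 400 mg of pericarp was extracted and 2.5 µg of RNA went into each TruSeq library, which kept no strand. TopHat2 2.0.6 and Cufflinks 2.0.2 appear in the submitters' processing notes. For the genome build and the annotation, nothing is given in the sources used here. The deposited values are FPKM, read as the authors' means for a cultivar at a stage from the table's name and its headers, which carry no replicate number. Column totals ran from 787405 to 1096120 FPKM. Read depth is unknown: among entries under 0.05 FPKM, the share with 1 common ratio (within 0.1%) had a median of 2.15% and a maximum of 3.74% over 190 column pairs, so no reads were recovered and no counting interval was computed.

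From these values log2(FPKM + 1) was fitted with limma 3.58.1 (R 4.3.3), with stage and cultivar as terms, a mean-variance trend and 12 residual degrees of freedom. Entries with a mean of at least 1 FPKM were tested, two-sided, with Benjamini-Hochberg adjustment over all 18207 and a threshold of 0.05. For a step, the limma p-value sets the mean change against the moderated residual spread between cultivars, pooled over stages, in 1 vineyard and season. For cultivar differences the 4 stages serve as the repeats. Ratios and shares were tested by exact permutation of stage labels within cultivars (331776 assignments). A step taken alone could not go below p = 0.0625 by permutation. The fit was tested on simulated data. Python 3.11.15, numpy 2.4.6, pandas 2.3.3 and matplotlib 3.10.9 were used.

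The members, lists and tests were chosen with earlier results of these data known. Named beside the members were the 3 entries most like each. The 2 entries of highest mean on each list, which the rule also named, are given among the other observations. Alternatives were pseudocounts of 0.1 and 5, no filter or a mean of at least 5 FPKM, other scalings, robust hyperparameters, no cultivar term, each cultivar left out, and exchange or removal of the Negroamaro and Primitivo harvest columns. The last, for ratios, shares and single cultivars, was added after seeing the data, as were plain FPKM ratios. No sequences were available here for these tags, so none is shown.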

Additional observations from a re-analysis of the deposited data

Results flagged for a closer look

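The chromosome 6 PAL gene VIT_06s0004g02620 went against the other cultivars in the harvest column labelled Negroamaro, where log2(FPKM + 1) was 1.37 higher than in soft berries, while it was lower in the other 4 cultivars. The difference was not tested. After exchange of the Negroamaro and Primitivo harvest columns the change was -0.38 in Negroamaro and -0.70 in Primitivo, and the gene was lower in 5 of 5 cultivars. Each gene and stage gave a set of 5 columns, 16 sets in all, in which a column stood apart if its gap to the nearest other was over 0.71 of the range (Dixon's criterion). Chance meets this in about 1 set of 20 where values are normally distributed, which was not checked for these sets. On the FPKM scale 4 sets held a column that stood apart. For the chromosome 8 PAL gene VIT_08s0040g01710 these were Negroamaro in touching berries at 12.1 FPKM (0.748 of the range), Negroamaro in soft berries at 38.8 FPKM (0.835) and Refosco at harvest at 292.1 FPKM (0.783). For C4H, VIT_06s0004g08150, it was Refosco at harvest at 796.2 FPKM (0.721). On the log2(FPKM + 1) scale used for the tests 0 of the 16 sets held one.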

How the results depend on the processing

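Of 547 values recomputed under other settings, 504 kept their direction and their side of the threshold or stayed within the tolerance set for them. For a step, the exchanged harvest columns, other filters, robust hyperparameters or no cultivar term can alter only the p-value. The change itself is fixed there, so its direction is kept by construction. The cause of the changes below was not tested. All adjusted p-values here are from limma unless an exact permutation is named.

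For the chromosome 6 PAL gene VIT_06s0004g02620, the ripening rise was 1.06 without a filter (adjusted p = 0.0509), 0.89 with equal totals (0.0709), 1.05 without the doubted harvest columns (0.0644) and 0.67 to 1.27 with a cultivar left out. Its fall into touching berries ran from -2.80 to -1.79 with a cultivar left out, and its harvest change from -1.79 to -0.83. The soft-berry change of the chromosome 8 PAL gene VIT_08s0040g01710 was -0.027 with equal totals and ran from -0.20 without Negroamaro to 0.44 without Refosco. For C4H, VIT_06s0004g08150, the touching change was -1.20 with quantile normalization (adjusted p = 0.0323), -1.29 with equal totals (0.0363), and -1.27 to -0.88 with a cultivar left out. Its soft change was 1.13 with upper-quartile scaling (0.0305), 1.07 with quantile normalization (0.0311), and 0.52 without Barbera to 1.09 without Sangiovese. Its harvest change was 1.11 with upper-quartile scaling (0.0437), 1.13 with quantile normalization (0.0326), 1.33 with equal totals (0.0180), 1.22 with equal totals outside the 10 highest genes (0.0286), and 0.59 without Refosco to 1.46 without Barbera. Its ripening change was 0.85 without the cultivar term (0.0613) and 0.69 to 1.07 with a cultivar left out.

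The genes called between cultivars numbered 2973, against 5224 with the doubted harvest columns exchanged, 4478 with them left out, and 960 without Sangiovese to 2548. Those called between pea-sized and touching berries numbered 4165, and 2421 without Barbera to 3627 with a cultivar left out. With Negroamaro and Primitivo both left out, the exact permutation gave adjusted p = 0.0833 for the chromosome 6 PAL gene over C4H and 0.0625 for the chromosome 8 over the chromosome 13 gene. With 1 cultivar left out, exact permutation adjusted p ran from 0.00564 to 0.0743 for chromosome 6 over 8, 0.0417 to 0.172 for 6 over 13, 0.0107 to 0.0743 for 6 over C4H, 0.0107 to 0.0743 for 8 over 13 and 0.00304 to 0.0743 for 8 over C4H. The share of dispersed PAL differed between stages with the columns exchanged (exact permutation, p = 7.54e-05) and without both cultivars (p = 0.00174).

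No paired analysis was possible because the deposited columns are means with no replicate number. The cultivar, which does link columns across stages, was a term of every fit but the alternative without it. Depth limits low values by an unknown amount, among them the PAL levels under 5 FPKM in touching and soft berries.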

Other observations

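The other entries listed as like C4H, a cytochrome P450 family, were lower than the described gene before harvest. VIT_11s0065g00350 had 10.6 ± 5.48 FPKM in pea-sized, 4.61 ± 3.63 in touching, 7.84 ± 7.06 in soft and 248.7 ± 344.1 FPKM in harvested berries (SD, n = 5), a rise of 3.92 on the log2 scale at the last step (limma adjusted p = 0.000231). VIT_11s0078g00290 rose there by 2.27 (limma adjusted p = 0.00496), from 0.222 to 9.43 FPKM. The summed level of the 2 correlated with C4H over the 20 columns at r = 0.847.

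Of the entries with the highest mean on each list, VIT_16s0039g01100 and VIT_16s0039g01130 of the chromosome 16 PAL cluster reached 138.7 and 87.9 FPKM at harvest. On the CHS list VIT_05s0136g00260 and VIT_14s0068g00920 peaked in soft berries at 981.4 and 157.3 FPKM, and on the list of later flavonoid enzymes VIT_02s0025g04720 did at 451.1 FPKM while VIT_18s0001g14310 was highest at harvest with 299.5 FPKM. The 4CL tags VIT_06s0061g00450 and VIT_16s0050g00390 peaked in touching berries at 101.0 FPKM and in soft berries at 90.1 FPKM. The STS tags VIT_16s0100g00860, VIT_16s0100g01000, VIT_10s0042g00860 and VIT_10s0042g00880 had 465.9, 323.9, 471.3 and 318.3 FPKM at harvest. The names of these tags carry the limit given above.

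At the steps called for a PAL gene, the nearest 2 tested entries on each side by tag number were looked up. Of 12 such neighbours 2 fell into touching berries, where 10.5% of all tested genes fell. Of 8, 3 rose into soft berries, all beside the chromosome 13 gene, where 13.9% of all rose, and of 4, 1 rose at harvest, where 14.9% of all rose. These counts are too small to be read against the background.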
